A study of Homo sapiens with 9 samples.

Results

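The transcripts described here are 39 genes controlled by, or acting in, 3 linked responses of the cell: transcription by YAP and TAZ with the TEAD factors, transcription by SRF with its MRTF partners, and the immediate-early response to growth signals. They are named genes, with no threshold on a measured value, but the list was drawn up with earlier results of these data known. All 39 were among the 23710 entries of the deposited count table, where CTGF, CYR61, MKL1 and MKL2 carry their older symbols. RNA was sequenced from MDA-MB-231, a human triple-negative breast cancer line with a truncated NF2. Cells had been transduced with lentivirus from a pGIPZ vector carrying a non-targeting hairpin (shNT) or a hairpin against UGDH (shUGDH-1 or shUGDH-2), and there were 3 libraries per hairpin and 9 in all. UGDH is the enzyme that turns UDP-glucose into UDP-glucuronic acid, the sugar donor for hyaluronan and other glycosaminoglycans. Every group therefore carries a lentiviral insert. The labels describe the libraries of a group as biological replicates of cells in DMEM with serum, with no other agent, and no clone is named. Cells were detached with trypsin and pelleted before RNA was extracted. The p-values below measure the spread between libraries within the hairpin groups of this 1 cell line. The effect of a hairpin and a difference between transduced cell populations cannot be told apart.

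YAP and its paralogue TAZ (encoded by WWTR1) are co-activators that enter the nucleus when cells spread on stiff matrix or when the Hippo kinases, among them LATS2, are quiet, and there they bind TEAD factors on genes such as CTGF, CYR61 and ANKRD1. SRF binds CArG boxes and has 2 kinds of partner. With the MRTF proteins (MKL1 and MKL2), which monomeric actin holds in the cytoplasm, it drives genes of the actin cytoskeleton. With ternary complex factors such as ELK1, which ERK phosphorylates, it drives immediate-early genes such as EGR1 and FOS within minutes of a growth signal.

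The hairpins were designed against UGDH and not against these 39 genes. Their antisense strands as the labels give them are shown with bases 2 to 8, the seed, in capitals, because each shUGDH group rests on a single sequence.
shUGDH-1: tTGCATCAaatatgcgacg
shUGDH-2: aTATACTTcagatctgctg
Over their full length both matched UGDH alone among GENCODE transcripts, in the coding sequence of exon 4 at chr4:39510687-39510705 and chr4:39510800-39510818 (GRCh38), and neither matched any of the 39 genes. UGDH counts were 690, 654 and 590 in shNT, 99, 97 and 74 under shUGDH-1 and 96, 86 and 84 under shUGDH-2, so the target was low in all 6 libraries labelled as knockdowns.

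Promoter windows from RefSeq (GRCh38.p14), running from 250 bases before to 50 bases after an annotated start, were found for 32 of the 39 genes, in 51 windows. None was found for CYR61, TEAD1, TEAD4, TAGLN, MYL9, EGR3 and CRIM1. The windows were searched on both strands for the letters GGAATG (TEAD), the CArG box (SRF), TGANTCA (AP-1) and TGACGTCA (CRE, bound by CREB and ATF factors). GGAATG stood in 13 of the 51 windows (25.5%), belonging to 13 genes, against 14% of all 35116 windows in the table. A CArG box stood in 9 of 51 (17.6%), belonging to 7 genes, against 1.29%. The FHL2 box at -101 in a window is the one at -85 in an overlapping window, and it was counted in each. As the list holds named targets of TEAD factors and SRF, higher shares of their letters are no independent finding. TGANTCA was found in 3 of 51 windows (ANKRD1, F3 and MKL2, 5.88%) and 7.71% of all windows, and TGACGTCA in 1 of 51 (DUSP1, 1.96%) and 1.85% of all windows. A match of letters is a description and not a bound site.

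The windows of 4 genes on which the results below turn are printed 5′ to 3′ on the strand of the gene, with the searched letters in capitals. CTGF and ANKRD1 are the YAP targets with the most TEAD letters, EGR1 had the largest rise of the set with each hairpin, and DUSP1 moved in opposite directions with the hairpins.
CTGF promoter (chr6:131951323-131951622, minus strand): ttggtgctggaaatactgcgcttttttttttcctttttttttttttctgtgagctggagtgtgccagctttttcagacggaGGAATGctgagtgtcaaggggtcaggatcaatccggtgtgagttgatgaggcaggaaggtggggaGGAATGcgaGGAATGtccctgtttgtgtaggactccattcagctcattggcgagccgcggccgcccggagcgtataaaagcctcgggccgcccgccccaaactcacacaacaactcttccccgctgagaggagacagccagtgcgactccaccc
ANKRD1 promoter (chr10:90921038-90921337, minus strand): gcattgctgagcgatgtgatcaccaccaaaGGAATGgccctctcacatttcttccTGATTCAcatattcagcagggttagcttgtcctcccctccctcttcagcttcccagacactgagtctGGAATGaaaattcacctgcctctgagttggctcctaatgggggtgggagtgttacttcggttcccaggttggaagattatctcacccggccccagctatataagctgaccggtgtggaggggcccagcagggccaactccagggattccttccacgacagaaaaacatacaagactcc
EGR1 promoter (chr5:138465229-138465528, plus strand): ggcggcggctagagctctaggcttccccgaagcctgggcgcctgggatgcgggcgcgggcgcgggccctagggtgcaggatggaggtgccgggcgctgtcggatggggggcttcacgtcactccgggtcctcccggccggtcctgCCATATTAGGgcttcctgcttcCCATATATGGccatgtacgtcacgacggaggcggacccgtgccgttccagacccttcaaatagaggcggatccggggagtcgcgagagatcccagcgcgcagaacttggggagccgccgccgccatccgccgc
DUSP1 promoter (chr5:172771146-172771445, minus strand): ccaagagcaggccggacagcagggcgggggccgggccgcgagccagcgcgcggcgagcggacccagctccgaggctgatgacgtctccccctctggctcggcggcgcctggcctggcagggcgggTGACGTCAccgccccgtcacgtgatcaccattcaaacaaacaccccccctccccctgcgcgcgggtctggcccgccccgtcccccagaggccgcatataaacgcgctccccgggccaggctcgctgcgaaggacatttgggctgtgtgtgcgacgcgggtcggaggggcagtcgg
In the CTGF window GGAATG began at positions -169, -104 and -95 from the start, in the order printed. ANKRD1 had it at -220 and -128, with TGATTCA at -195. EGR1 had CArG boxes at -105 and -83, and DUSP1 the CRE letters at -125. None of these matches overlapped another. The FOS window held none of the 4 motifs, which says only that those letters are not within it.

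Libraries held 9249738 to 13328002 counts, with 14899 to 15278 genes detected, and pairs of libraries within a group varied 1.19 to 1.91 times as much as counting alone, most between shNT 1 and the other shNT libraries. Of the 39 genes, 38 had enough counts to be tested and CNN1 (calponin 1, a smooth-muscle protein) had 0 counts in all 9 libraries, which allows a level of up to 0.226 to 0.325 CPM (3 counts, for counting error only). A gene was called at an adjusted p under 0.05 in edgeR's quasi-likelihood test, adjusted by the Benjamini-Hochberg method over all 12546 genes tested, which is written edgeR adjusted p from here on. Levels are counts scaled to library size (CPM). These transcripts were abundant, with a median mean level of 223 CPM against 31.3 CPM over all genes tested and a median coefficient of variation within groups of 2.10% against 5.16%. Of the 38, 29 lay at 50 CPM or more, where a larger share of all genes was called.

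With shUGDH-1, 12 of the 38 genes were higher than in shNT, 6 were lower and 20 were not called. Over all genes tested 20.8% were called, 10.5% higher and 10.3% lower. Among genes at 50 CPM or more the share called was 33.6% (17% higher, 16.6% lower), beside 55.2% of the 29 abundant genes of the set. With shUGDH-2, 10 were higher, 5 lower and 23 not called, against 14.9% of all genes (8.04% higher, 6.81% lower). The shares at 50 CPM or more were 25.6% for all genes (13.6% higher, 12% lower) and 44.8% for the set. The genes lower with shUGDH-1 numbered 2 without shNT 3, and those lower with shUGDH-2 numbered 3 without shNT 2, shNT 3 or shUGDH-2 2. Median log2 fold changes were 0.021 and 0.012, against -0.0026 and -0.0059 over all genes. Both comparisons use the same shNT libraries. The genes higher with both hairpins were CYR61, ANKRD1, AXL, THBS1, MKL1, CNN3 and EGR1, 7 of 38 where 4.72% of all genes did so. F3 was the only one lower with both (3.61% of all genes). FOS and DUSP1 were higher with shUGDH-1 and lower with shUGDH-2, which 0.159% of all genes did. These joint shares are over all genes tested and were not taken for genes at 50 CPM or more, of which a larger share was called with each hairpin. As the RNA is from bulk cells, fewer cells making a transcript and less of it per cell cannot be told apart.

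**Figure D1:**
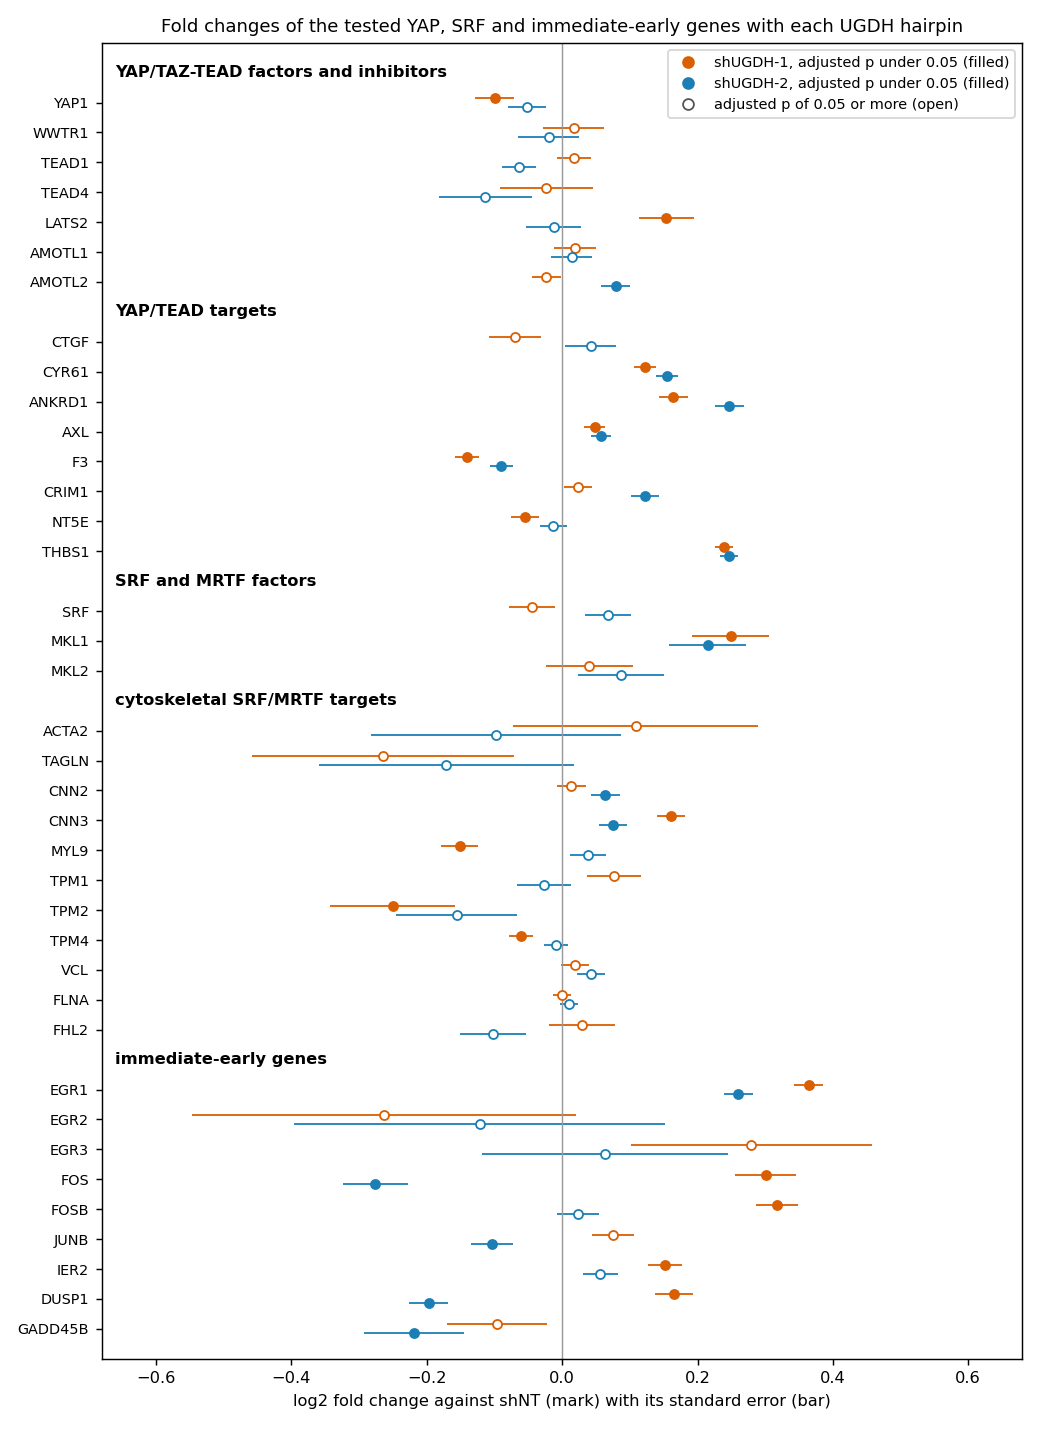
Log2 fold change against shNT (x axis) of each of the 38 tested genes (y axis, grouped by role), with marks for the estimate, bars for its standard error, orange for shUGDH-1, blue for shUGDH-2 and filled marks for an adjusted p under 0.05. FOS and DUSP1 have filled marks on opposite sides of 0, while EGR1 and THBS1 lie to the right with both hairpins.

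**Figure D2:**
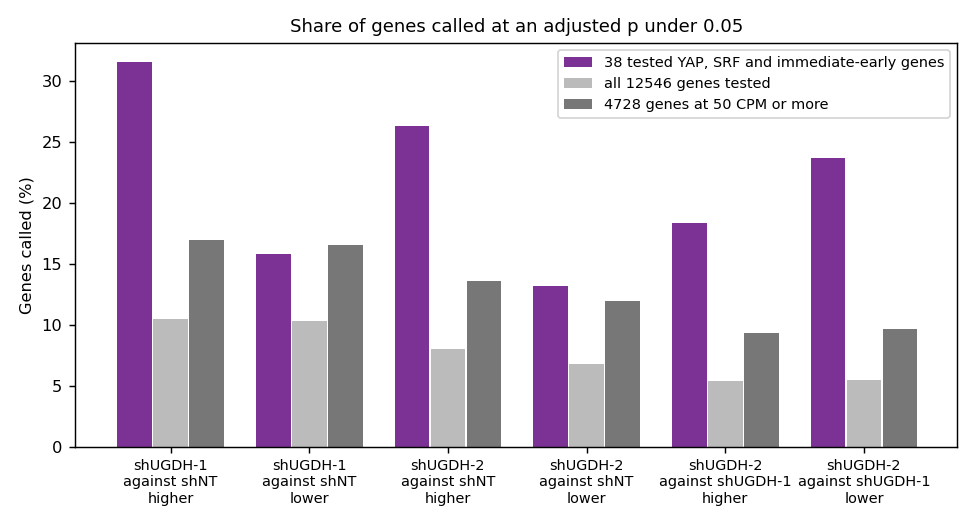
Share of genes called (y axis, percent) in each comparison and direction (x axis), for the 38 genes of the set, all 12546 genes tested and the 4728 genes at 50 CPM or more. For genes lower than shNT the bars of the set lie near those of the abundant genes, and for genes higher than shNT they lie above them.

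Of the 7 co-activators, TEAD factors and inhibitors of YAP, 1 rose and 1 fell with shUGDH-1 (LATS2 and YAP1), and 1 rose with shUGDH-2 (AMOTL2). The changes were small, at most 11.3%. In either direction 28.6% and 14.3% of the 7 were called, against 20.8% and 14.9% of all genes. Of all genes at 50 CPM or more 33.6% and 25.6% were called, so these counts lie near the background. YAP1 stood at 231.3, 222 and 233 CPM under shNT, 217, 214 and 208 under shUGDH-1 and 222, 219 and 221 under shUGDH-2. All 3 shUGDH-1 libraries lay below all shNT libraries, and the shUGDH-2 libraries overlapped them. YAP1 fell by 0.10 on the log2 scale with shUGDH-1 (SE 0.03, edgeR adjusted p = 0.0079). The call was lost without shNT 3 (edgeR adjusted p = 0.056) or without shUGDH-1 3 (0.063). WWTR1, which encodes TAZ, gave 81.1, 73.3 and 80.7 CPM under shNT, 80.5, 77.6 and 80.2 under shUGDH-1 and 78.5, 78.2 and 75.4 under shUGDH-2, with all groups overlapping. Its log2 fold changes had 95% intervals of -0.07 to 0.11 and -0.11 to 0.07.

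LATS2 stood at 89.7, 91.5 and 90.6 CPM under shNT, 103, 99.4 and 100.2 under shUGDH-1 and 89.2, 87.7 and 92.5 under shUGDH-2. LATS2 is the kinase that phosphorylates YAP and holds it in the cytoplasm. It was higher in every shUGDH-1 library than in any other library, while shUGDH-2 and shNT overlapped. LATS2 rose by 0.15 on the log2 scale with shUGDH-1 (SE 0.04, edgeR adjusted p = 0.003) and was lower with shUGDH-2 than with shUGDH-1 (-0.17, edgeR adjusted p = 0.0023). AMOTL2, an angiomotin-like protein that binds YAP, showed the reverse arrangement. AMOTL2 read 462, 459.6 and 453 CPM under shNT, 446, 455 and 453 under shUGDH-1 and 488, 481 and 485 under shUGDH-2. Each shUGDH-2 library lay above all 6 others. It rose by 0.08 against shNT (edgeR adjusted p = 0.0067) and by 0.10 against shUGDH-1 (edgeR adjusted p = 4.0e-04). Over all genes the fold changes follow a trend with GC content, length and level, and with that trend removed the rise against shNT was 0.05. TEAD1 stood at 404, 383 and 384 CPM under shNT, 400.0, 396 and 389 under shUGDH-1 and 359, 381 and 380.2 under shUGDH-2. TEAD1 is one of the DNA-binding partners of YAP, and its shUGDH-2 libraries lay below those of both other groups. The difference was called only between the hairpins (-0.08, edgeR adjusted p = 0.022), and not without shUGDH-1 1 (edgeR adjusted p = 0.12), shUGDH-1 2 (0.098) or shUGDH-2 1 (0.25), the last of which gave -0.05. TEAD4, at 30.1 ± 0.696 CPM in shNT (SD, n = 3), and AMOTL1, at 172 ± 3.35 CPM, were not called in any comparison.

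The 8 YAP and TEAD target genes moved in both directions. With shUGDH-1, CYR61, ANKRD1, AXL and THBS1 were higher and F3 and NT5E lower, 4 and 2 of 8, where 17% of all genes at 50 CPM or more were higher and 16.6% lower. With shUGDH-2, CYR61, ANKRD1, AXL, THBS1 and CRIM1 were higher and F3 was lower, 5 and 1 of 8, against 13.6% and 12%. CTGF, a target widely used to read YAP activity, was not called with either hairpin. Median log2 fold changes of the 8 were 0.04 and 0.09.

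THBS1, the secreted matrix glycoprotein thrombospondin 1, had the largest rise among the targets with shUGDH-1. THBS1 measured 5445, 5435 and 5397 CPM under shNT, 6396, 6408 and 6408 under shUGDH-1 and 6464, 6471 and 6375 under shUGDH-2. The shUGDH-1 and shUGDH-2 libraries all lay above every shNT library and overlapped each other. The rise was 18.0% with shUGDH-1 (log2 0.24, SE 0.01, edgeR adjusted p = 5.3e-23) and 18.6% with shUGDH-2 (log2 0.25, SE 0.01, edgeR adjusted p = 1.9e-23). ANKRD1 encodes an ankyrin-repeat protein of muscle and stressed cells and its promoter is among those printed above. ANKRD1 stood at 432, 432 and 447 CPM under shNT, 491, 491 and 486 under shUGDH-1 and 514, 522 and 519 under shUGDH-2. The groups did not overlap, in the order shNT, shUGDH-1, shUGDH-2. ANKRD1 rose by 0.16 and 0.25 (edgeR adjusted p = 2.1e-08 and 4.6e-14), and the 0.08 between the hairpins was also called (edgeR adjusted p = 0.0049).

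CYR61, a matricellular protein that binds integrins, had the highest level per kilobase of transcript among the 39 genes in shNT, 1204 CPM per kilobase, followed by the actin cross-linker FLNA at 705 and THBS1 at 698. CYR61 stood at 2687, 2789 and 2799 CPM under shNT, 2950.2, 2985 and 3077 under shUGDH-1 and 3118, 3063 and 3029.8 under shUGDH-2. Both knockdown groups lay above shNT and overlapped each other. CYR61 rose by 0.12 and 0.15 on the log2 scale (edgeR adjusted p = 2.4e-08 and 5.3e-11). CTGF stood at 432, 417 and 432 CPM under shNT, 387, 419 and 417 under shUGDH-1 and 464, 441 and 415 under shUGDH-2. CTGF, a matricellular protein of the same family as CYR61, had overlapping groups throughout. Its log2 fold changes of -0.07 (95% interval -0.15 to 0.01) and 0.04 (-0.04 to 0.12) were not called (edgeR adjusted p = 0.24 and 0.54). CTGF varied more within the knockdown groups than CYR61 did, and it passed with shUGDH-2 when shUGDH-2 3 was left out (edgeR adjusted p = 0.044) and with shUGDH-1 when no filter on low counts was applied (edgeR adjusted p = 0.039). Between the hairpins it passed without shUGDH-1 2 (edgeR adjusted p = 0.021), shUGDH-1 3 (0.046) or shUGDH-2 3 (1.6e-04). With all libraries it did not pass between the hairpins (0.11, edgeR adjusted p = 0.08), but it did with upper quartile factors (edgeR adjusted p = 0.011) or with no filter on low counts (1.1e-04).

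F3, tissue factor, the cell-surface starter of blood clotting, fell. F3 read 1340.1, 1299 and 1321 CPM under shNT, 1193, 1199 and 1199.7 under shUGDH-1 and 1245, 1244 and 1231 under shUGDH-2. No shUGDH library reached the lowest shNT library. F3 fell by 0.14 on the log2 scale with shUGDH-1 and by 0.09 with shUGDH-2 (edgeR adjusted p = 2.0e-09 and 7.7e-05). With the trend with GC content, length and level removed, F3 gave -0.07 and -0.03. AXL, a receptor tyrosine kinase of mesenchymal cancer cells, differed least of the targets called. AXL stood at 2251, 2280.1 and 2257 CPM under shNT, 2338, 2343 and 2337 under shUGDH-1 and 2343, 2349 and 2369.5 under shUGDH-2. Both knockdown groups lay above shNT, by 3.38% (edgeR adjusted p = 0.015) and 4.03% (0.0051). The first of these calls was lost without shNT 1 (edgeR adjusted p = 0.052), shNT 3 (0.054), shUGDH-1 2 (0.078) or shUGDH-1 3 (0.051), and the log2 fold change of 0.05 was 0.02 with the trend removed.

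CRIM1, a transmembrane protein that binds growth factors, moved with shUGDH-2. CRIM1 stood at 524, 528 and 519 CPM under shNT, 531, 533 and 534 under shUGDH-1 and 577, 573 and 560.5 under shUGDH-2. The shUGDH-2 libraries stood above all others. CRIM1 rose by 0.12 against shNT and by 0.10 against shUGDH-1 (edgeR adjusted p = 1.0e-05 and 3.6e-04). NT5E was at 703, 688 and 706 CPM under shNT, 691, 659 and 669 under shUGDH-1 and 688, 697 and 693 under shUGDH-2. NT5E, the ectoenzyme CD73 that makes adenosine outside the cell, overlapped between all groups. Its fall of 0.05 on the log2 scale with shUGDH-1 just passed (edgeR adjusted p = 0.045) and was kept in 5 of the 16 alternative tests. It was lost without shNT 1 or 3, shUGDH-1 2 or 3, or any shUGDH-2 library, with edgeR adjusted p up to 0.31, and was -0.03 with the trend with GC content, length and level removed.

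**Figure D3:**
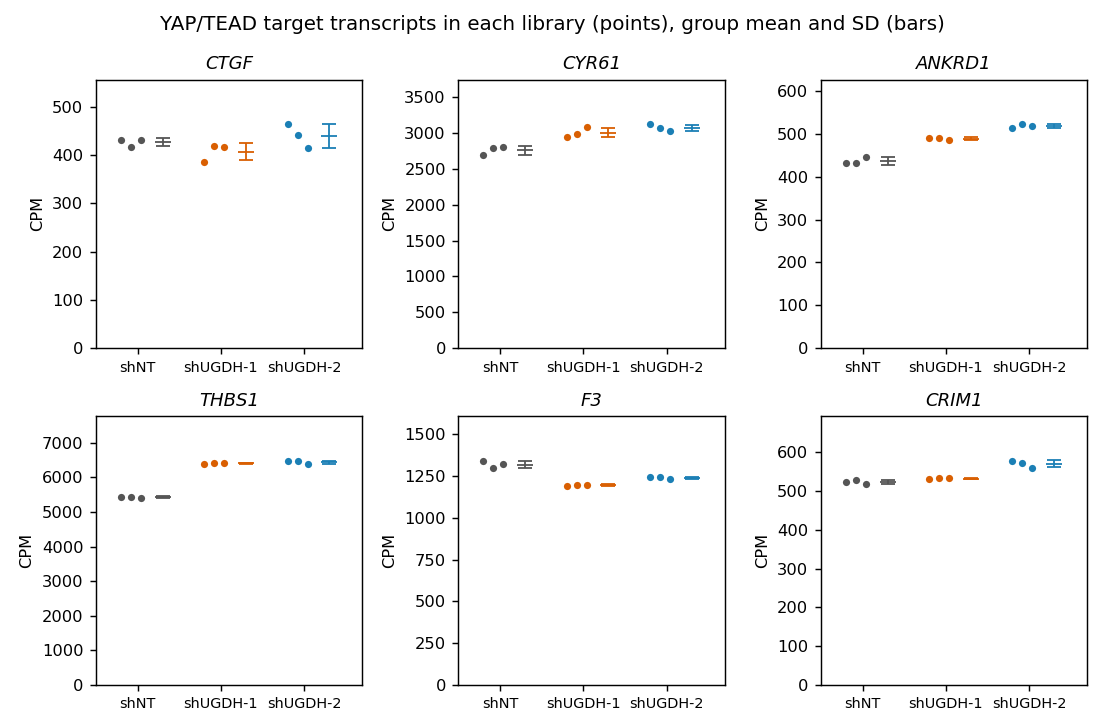
CPM (y axis, from 0) of 6 YAP and TEAD targets in each library (points, grouped by hairpin on the x axis), with the group mean and SD beside them. THBS1, CYR61 and ANKRD1 are higher in all 6 knockdown libraries than in shNT, F3 is lower in all 6, and the CTGF groups overlap.

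Of the SRF and MRTF factors, MKL1 alone was called against shNT. MKL1 encodes MRTF-A, the actin-sensing co-activator of SRF. MKL1 stood at 38.1, 39.4 and 41.1 CPM under shNT, 45.7, 47.5 and 47.8 under shUGDH-1 and 45.3, 44.4 and 47.8 under shUGDH-2. Every knockdown library lay above every shNT library, and the knockdown groups overlapped. MKL1 rose by 18.8% with shUGDH-1 and 16.1% with shUGDH-2 (edgeR adjusted p = 7.1e-04 and 0.0054). SRF stood at 149.7, 148 and 142 CPM under shNT, 140.1, 139.8 and 147 under shUGDH-1 and 156, 151 and 154 under shUGDH-2. SRF itself overlapped with shNT in the shUGDH-1 group and lay just above it in the shUGDH-2 group, by 0.07 on the log2 scale (edgeR adjusted p = 0.19). It differed between the hairpins (0.11, edgeR adjusted p = 0.021), a call lost without shUGDH-1 1 (edgeR adjusted p = 0.11), shUGDH-1 2 (0.12), shUGDH-2 1 (0.085) or shUGDH-2 3 (0.068). MKL2, which encodes MRTF-B, was at 33.0 ± 1.15 CPM under shNT, 34.0 ± 1.72 under shUGDH-1 and 35.0 ± 0.510 under shUGDH-2 (SD, n = 3) and was not called.

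The 12 cytoskeletal targets of SRF and MRTF moved in both directions. Of the 11 tested, 1 was higher and 3 lower with shUGDH-1, and 2 were higher and none lower with shUGDH-2. Median log2 fold changes were 0.01 and -0.01. In either direction 36.4% and 18.2% of the 11 were called, against 20.8% and 14.9% of all genes. Of all genes at 50 CPM or more 33.6% and 25.6% were called, so these counts lie near the background. The smooth-muscle genes of the group were scarce in these cells. ACTA2 stood at 4.61, 3.74 and 3.41 CPM under shNT, 3.93, 4.89 and 3.80 under shUGDH-1 and 3.87, 3.16 and 4.04 under shUGDH-2. Smooth-muscle actin overlapped between all groups, and the 95% intervals of its log2 fold changes, -0.25 to 0.47 and -0.47 to 0.27, are wide. TAGLN (transgelin) lay between 2.98 and 4.84 CPM over the 9 libraries, and CNN1 was not detected. FLNA (filamin A) was even across groups, at 6008 ± 27.3, 6009.9 ± 25.7 and 6048 ± 72.7 CPM (SD, n = 3), with log2 fold changes within 95% intervals of -0.03 to 0.03 and -0.02 to 0.04.

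CNN3, a calponin of non-muscle cells, was the cytoskeletal gene higher with both hairpins. CNN3 stood at 557, 555 and 559 CPM under shNT, 626, 619 and 623 under shUGDH-1 and 584, 579 and 598 under shUGDH-2. The groups did not overlap, with shUGDH-1 highest. CNN3 rose by 0.16 and 0.08 (edgeR adjusted p = 5.8e-09 and 0.0065), and the hairpins differed by -0.09 (edgeR adjusted p = 0.0019). The shUGDH-2 call was lost without shUGDH-2 3 (edgeR adjusted p = 0.051), and its value was 0.12 with the trend with GC content, length and level removed. CNN2, its paralogue, measured 514, 533 and 519 CPM under shNT, 526, 531 and 523 under shUGDH-1 and 537, 541 and 558 under shUGDH-2. Only the shUGDH-2 libraries lay above all others. CNN2 rose by 0.06 with shUGDH-2 (edgeR adjusted p = 0.032), which was lost without shNT 1 (edgeR adjusted p = 0.12), shNT 3 (0.091) or shUGDH-2 3 (0.18).

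MYL9, the regulatory light chain of smooth-muscle and non-muscle myosin II, separated the hairpins. MYL9 stood at 253, 259 and 264 CPM under shNT, 231.3, 237 and 229 under shUGDH-1 and 264, 267 and 264 under shUGDH-2. The shUGDH-1 libraries lay below all others, and those of shUGDH-2 lay close to shNT. MYL9 fell by 0.15 on the log2 scale with shUGDH-1 (SE 0.03, edgeR adjusted p = 1.8e-05), was not called with shUGDH-2 (0.04, edgeR adjusted p = 0.39), and differed by 0.19 between the hairpins (edgeR adjusted p = 2.4e-07). Tropomyosins stabilise actin filaments, and their paralogues may share reads. TPM4 stood at 1274, 1279 and 1291 CPM under shNT, 1234, 1198 and 1257 under shUGDH-1 and 1262, 1274 and 1284 under shUGDH-2. All shUGDH-1 libraries were below shNT. TPM4 fell by 4.09% (edgeR adjusted p = 0.0091), a call lost without shNT 3 (edgeR adjusted p = 0.057) or shUGDH-1 2 (0.18). Between the hairpins TPM4 differed by 0.05 (edgeR adjusted p = 0.048), a call lost without shNT 3, shUGDH-1 1, shUGDH-1 2 or any shUGDH-2 library (edgeR adjusted p up to 0.38), and its value was 0.03 without shUGDH-1 2.

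TPM2 stood at 18.7, 19.0 and 21.6 CPM under shNT, 14.0, 17.5 and 18.8 under shUGDH-1 and 18.0, 17.3 and 17.9 under shUGDH-2. All 3 shUGDH-2 libraries of TPM2 lay below shNT (-0.16, edgeR adjusted p = 0.27), while the shUGDH-1 libraries overlapped shNT, with shUGDH-1 1 the lowest library. Its fall of 0.25 with shUGDH-1 (edgeR adjusted p = 0.042) was lost without shUGDH-1 1 (-0.13, edgeR adjusted p = 0.42), shNT 3 (0.22) or shUGDH-2 1 (0.051). TPM1, VCL (vinculin, which links integrins to actin) and FHL2 (a LIM-domain co-factor) were not called with all libraries, at log2 fold changes between -0.10 and 0.08 against shNT. Left-out libraries made 2 of these pass, FHL2 lower with shUGDH-2 without shUGDH-2 3 (edgeR adjusted p = 0.032, and 0.0098 against shUGDH-1) and TPM1 higher with shUGDH-1 without shNT 2 (edgeR adjusted p = 0.045).

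**Figure D4:**
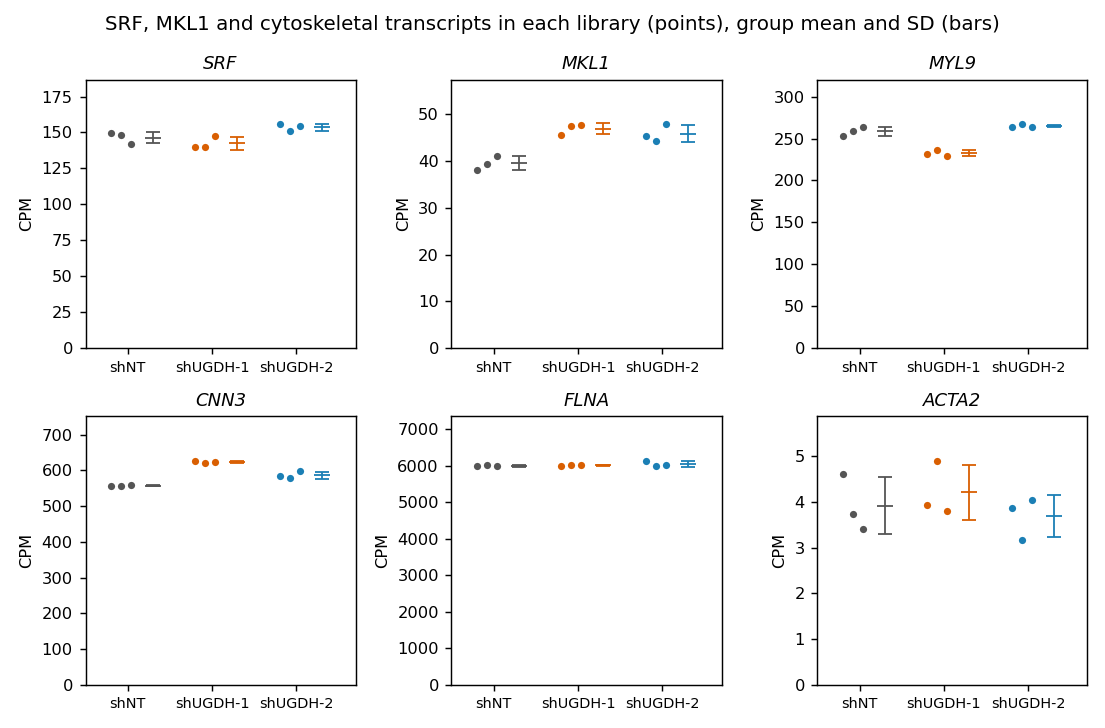
CPM (y axis, from 0) of SRF, MKL1 and 4 cytoskeletal genes in each library (points, by hairpin on the x axis), with the group mean and SD beside them. MKL1 and CNN3 are higher in all 6 knockdown libraries than in shNT, MYL9 is lowest with shUGDH-1, and the FLNA groups coincide.

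The immediate-early genes showed the largest differences between the hairpins, with a median absolute log2 difference of 0.18, against 0.09 over the 38 genes and 0.08 over all genes. With shUGDH-1, EGR1, FOS, FOSB, IER2 and DUSP1 were higher and none of the 9 was lower. With shUGDH-2, EGR1 alone was higher, and FOS, DUSP1, JUNB and GADD45B were lower. The median log2 fold change of the 9 was 0.17 with shUGDH-1 and -0.10 with shUGDH-2. With shUGDH-1 55.6% of the 9 were higher, against 10.5% of all genes and 17% of those at 50 CPM or more. With shUGDH-2 11.1% were higher and 44.4% lower, against 8.04% and 6.81% of all genes. At 50 CPM or more 13.6% of all genes were higher and 12% lower with shUGDH-2, so the share higher lies near the background. Directly between the hairpins, FOS, FOSB, JUNB, DUSP1, EGR1 and IER2 were lower with shUGDH-2 and none was higher. In that comparison 9 of the 38 genes were lower and 7 higher (4 higher without shUGDH-1 1 or shUGDH-2 1), against 5.51% and 5.36% of all genes and 10.9% in either direction. At 50 CPM or more the shares of all genes were 9.64% lower, 9.31% higher and 19% in either direction, beside 55.2% of the abundant genes of the set. The count lower with shUGDH-2 fell from 4 to 2 without shNT 2, shNT 3 or shUGDH-2 2, and the shUGDH-2 median moved to -0.03 without shNT 2 and to 0.01 without shUGDH-2 2.

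FOS, a subunit of the AP-1 transcription factor, had the largest difference between the hairpins. FOS stood at 74.6, 81.4 and 72.6 CPM under shNT, 89.4, 97.4 and 94.7 under shUGDH-1 and 64.0, 61.0 and 63.8 under shUGDH-2. The groups were fully apart, with shUGDH-1 above shNT and shUGDH-2 below it. Group means were 76.2 ± 4.60, 93.8 ± 4.05 and 62.9 ± 1.68 CPM (SD, n = 3). FOS rose by 23.2% with shUGDH-1 (log2 0.30, SE 0.05, edgeR adjusted p = 4.7e-07) and fell by 17.4% with shUGDH-2 (log2 -0.28, SE 0.05, edgeR adjusted p = 1.8e-05). The hairpins differed by -0.58 on the log2 scale (SE 0.05, 95% interval -0.67 to -0.48, edgeR adjusted p = 2.7e-15). Both directions were kept in all 16 alternative tests.

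DUSP1, the phosphatase that switches off MAP kinases, is the other gene called in opposite directions. DUSP1 stood at 222, 225 and 230.9 CPM under shNT, 249.6, 252 and 259 under shUGDH-1 and 202, 199 and 191 under shUGDH-2. Its groups were also fully apart, in the order of FOS. DUSP1 rose by 0.17 with shUGDH-1 (edgeR adjusted p = 7.3e-06), fell by 0.20 with shUGDH-2 (edgeR adjusted p = 5.8e-07) and differed by -0.36 between the hairpins (edgeR adjusted p = 1.4e-15). FOSB, another FOS-family subunit of AP-1, was high with shUGDH-1. FOSB stood at 169, 171 and 173 CPM under shNT, 211, 212 and 215 under shUGDH-1 and 171, 169 and 181 under shUGDH-2. The shUGDH-2 and shNT libraries overlapped. FOSB rose by 0.32 with shUGDH-1 (SE 0.03, edgeR adjusted p = 1.5e-12) and was not called with shUGDH-2 (0.02, 95% interval -0.04 to 0.09). The hairpins differed by -0.29 (edgeR adjusted p = 2.8e-11).

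EGR1, a zinc-finger factor whose promoter carries the CArG boxes shown above, rose with both. EGR1 stood at 479, 491 and 485 CPM under shNT, 614, 635 and 623 under shUGDH-1 and 585, 571 and 586 under shUGDH-2. The groups did not overlap, in the order shNT, shUGDH-2, shUGDH-1. EGR1 rose by 28.7% (log2 0.36, SE 0.02, edgeR adjusted p = 6.2e-22) and by 19.8% (log2 0.26, SE 0.02, edgeR adjusted p = 2.4e-15), and the hairpins differed by -0.10 (edgeR adjusted p = 1.8e-04). Its paralogues were scarce. EGR2 lay between 1.30 and 2.02 CPM and EGR3 between 3.40 and 5.01 CPM over the 9 libraries, and neither was called.

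IER2 stood at 322, 343 and 339 CPM under shNT, 363, 372 and 382 under shUGDH-1 and 352, 340.1 and 351 under shUGDH-2. IER2, a nuclear protein of the early response, rose by 0.15 with shUGDH-1 (edgeR adjusted p = 4.3e-06), with all 3 libraries above shNT. With shUGDH-2 its libraries overlapped shNT (0.06, edgeR adjusted p = 0.13). The -0.10 between the hairpins (edgeR adjusted p = 0.0061) was lost without shUGDH-1 3 (edgeR adjusted p = 0.086) or shUGDH-2 2 (0.082). JUNB stood at 194, 209.7 and 214 CPM under shNT, 212, 219 and 220.1 under shUGDH-1 and 196, 191 and 188 under shUGDH-2. JUNB, a JUN-family partner in AP-1, overlapped shNT with either hairpin, while every shUGDH-2 library lay below every shUGDH-1 library. The latter difference was -0.18 (edgeR adjusted p = 1.9e-05). Its fall of 0.10 against shNT (edgeR adjusted p = 0.016) was lost without shNT 2 (edgeR adjusted p = 0.084), shNT 3 (0.18), shUGDH-2 2 (0.06) or shUGDH-2 3 (0.098), and JUNB passed as higher with shUGDH-1 without shNT 3 (0.028).

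GADD45B stood at 26.3, 31.9 and 28.96 CPM under shNT, 27.6, 26.9 and 26.8 under shUGDH-1 and 25.4, 22.7 and 26.7 under shUGDH-2. GADD45B, a stress-response protein, had 1 shUGDH-2 library within the range of shNT. It fell by 0.22 with shUGDH-2 (SE 0.07, edgeR adjusted p = 0.034), a call lost without shNT 2 (-0.15, edgeR adjusted p = 0.26), shNT 3 (0.077), shUGDH-2 1 (0.07) or shUGDH-2 2 (0.25). With no library of these groups left out, the call was also lost in DESeq2's Wald test (DESeq2 adjusted p = 0.145) and with only the 2 groups compared (edgeR adjusted p = 0.0505).

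**Figure D5:**
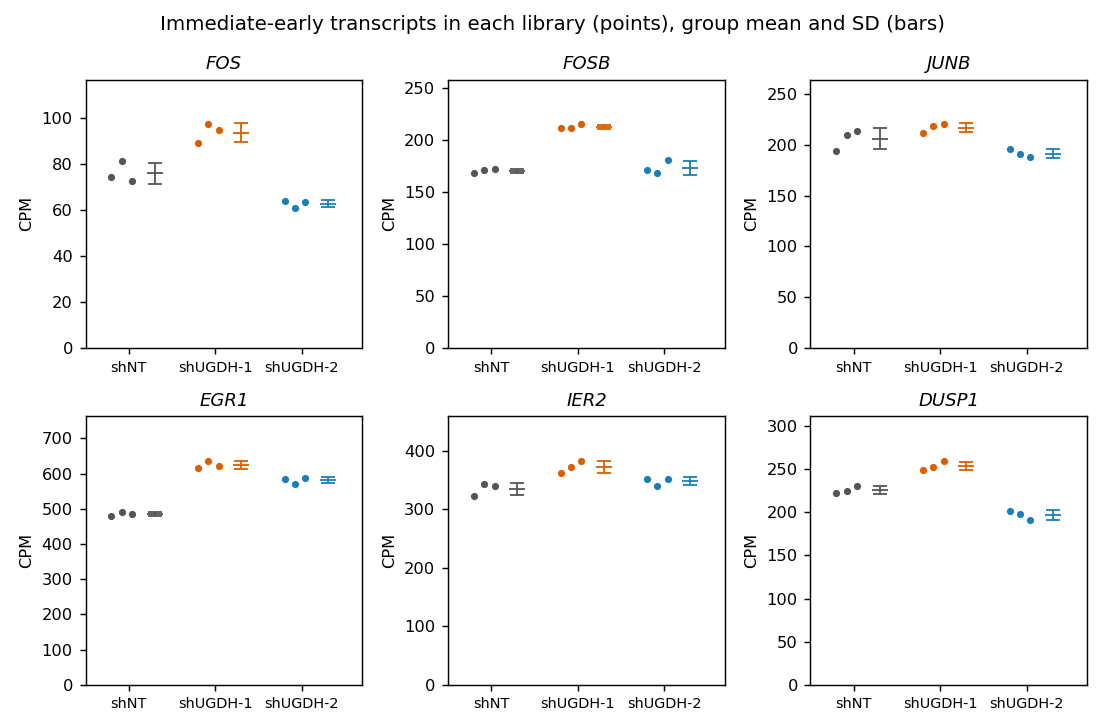
CPM (y axis, from 0) of 6 immediate-early genes in each library (points, by hairpin on the x axis), with the group mean and SD beside them. FOS and DUSP1 are highest with shUGDH-1 and lowest with shUGDH-2, FOSB is highest with shUGDH-1, and EGR1 is above shNT in all 6 knockdown libraries.

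Immediate-early genes also respond to detaching cells, and RNA was extracted after trypsin. The 9 heat shock and dissociation genes summed to 5959 to 5971 CPM under shNT, 5807 to 5834 under shUGDH-1 and 5549 to 5650 under shUGDH-2. Most of this sum was HSPA8 and HSP90AA1, at means of 2434 and 1848 CPM in shNT. Of the 9, 2 were higher and 3 lower with shUGDH-1, and 1 was higher and 5 lower with shUGDH-2, none of them at 0. In either direction that is 55.6% and 66.7%, against 20.8% and 14.9% of all genes. Of all genes at 50 CPM or more 33.6% and 25.6% were called. The 2 higher with shUGDH-1 were HSPB1 (0.16, edgeR adjusted p = 4.1e-06) and DNAJB1 (0.10, 0.0075). HSPE1, a mitochondrial chaperone, was lowest relative to shNT (-0.27 with shUGDH-2, edgeR adjusted p = 0.0081). The part of handling in the immediate-early differences was not tested. Markers that MDA-MB-231 expresses highly (VIM, CD44, EGFR, MSN) summed to 4521 to 4671, 4935 to 4988 and 4528 to 4645 CPM, and VIM (vimentin), like FOSB, was higher with shUGDH-1 than in the other groups (2206 ± 52.6, 2495 ± 27.2 and 2145 ± 24.1 CPM, SD, n = 3). The luminal and epithelial markers that the line expresses weakly, among them ESR1, PGR and CDH1, summed to 43.4 to 49.1, 50.6 to 53.5 and 52.9 to 58.0 CPM, mostly GATA3 (higher with shUGDH-2 by 0.29, edgeR adjusted p = 4.0e-04), with PGR at 0. EPCAM, of the same list, was at 8.35 CPM in shNT and was higher with shUGDH-1 (0.36, edgeR adjusted p = 0.026). Markers of smooth muscle and fibroblasts, cell types that also make ACTA2, TAGLN and MYL9, summed to 149 to 151, 164 to 171 and 154 to 166 CPM, mostly SMTN. SMTN, a smooth-muscle cytoskeletal protein, was higher with shUGDH-1 (0.18, edgeR adjusted p = 1.0e-04), and the collagen gene COL1A1, at 9.89 ± 0.675 CPM in shNT (SD, n = 3), was higher with shUGDH-2 (0.42, edgeR adjusted p = 0.0035). PDGFRB, at 20.1 ± 1.34 CPM in shNT (SD, n = 3), was not called. In that list DCN, LUM and ACTG2 were at 0 in every library and MYH11 and DES under 1 CPM on average. Leukocyte markers summed to 1.53 to 1.70, 2.06 to 2.77 and 1.78 to 2.23 CPM, mostly CD14, with CD3E at 0. The part of other cells in the results was not tested.

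Other genes of the same pathways were counted in lists of their own. Of 22 tested Hippo kinases, adaptors and TEAD partners, 4 were higher and 3 lower with shUGDH-1 and 2 higher and 1 lower with shUGDH-2, with median log2 fold changes of 0.0025 and 0.019. In either direction that is 31.8% and 13.6% of them, against 20.8% and 14.9% of all genes, so the shUGDH-2 count lies near the background. Of all genes at 50 CPM or more 33.6% and 25.6% were called, so neither count exceeds the share of abundant genes. WWC1 (KIBRA, which activates LATS kinases) was higher with both, by 0.17 and 0.26 (edgeR adjusted p = 9.5e-06 and 4.1e-10). SAV1, the scaffold of the Hippo kinases, rose with shUGDH-1 (0.28, edgeR adjusted p = 1.5e-04), WWC2 fell with it (-0.26, 3.6e-07), and MOB1A, the LATS co-activator, fell with shUGDH-2 (-0.14, 0.042). Of 16 other reported YAP and TEAD targets, 5 were higher and 2 lower with shUGDH-1 and 6 higher and none lower with shUGDH-2, with medians of 0.02 and 0.06, or 43.8% and 37.5% in either direction. The kinase NUAK2 rose with both (0.19 and 0.20, edgeR adjusted p = 4.0e-05 and 2.2e-05), as did the transglutaminase TGM2 (0.06 and 0.14, 0.0039 and 5.6e-11). IGFBP3, which binds insulin-like growth factors, rose with shUGDH-1 (0.22, edgeR adjusted p = 0.0016), and the growth factor TGFB2 with shUGDH-2 (0.21, 9.6e-08).

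Of 24 other actin cytoskeleton genes tested, 11 were higher and 1 lower with shUGDH-1, and 6 were higher and 1 lower with shUGDH-2, with medians of 0.05 and 0.02. The shares higher, 45.8% and 25%, stand beside 10.5% and 8.04% of all genes, or 17% and 13.6% of those at 50 CPM or more. PFN1 (profilin, which loads actin monomers) rose by 0.17 and 0.11 (edgeR adjusted p = 2.0e-04 and 0.012). MYH9, the heavy chain of non-muscle myosin, rose by 0.07 and 0.09 (edgeR adjusted p = 1.1e-04 and 4.9e-06), and ACTB (beta-actin, which may share reads with its pseudogenes) by 0.07 and 0.08 (edgeR adjusted p = 3.9e-05 and 5.4e-06). TGFB1I1, a focal adhesion protein, rose with shUGDH-1 (0.19, edgeR adjusted p = 0.0051).

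Of 29 other immediate-early and ERK feedback genes, 8 were higher and 2 lower with shUGDH-1, 5 higher and 8 lower with shUGDH-2, and 3 higher and 10 lower with shUGDH-2 than with shUGDH-1. Medians were 0.02, -0.03 and -0.06. In either direction 34.5%, 44.8% and 44.8% of the 29 were called, against 20.8%, 14.9% and 10.9% of all genes. Of all genes at 50 CPM or more 33.6%, 25.6% and 19% were called, so the shUGDH-1 count lies near the share of abundant genes. JUND, the AP-1 subunit, rose by 0.55 and 0.56 (edgeR adjusted p = 6.9e-05 and 9.4e-05). NR4A1, an orphan nuclear receptor, rose by 0.36 and 0.17 (edgeR adjusted p = 3.8e-11 and 0.0015) and was lower with shUGDH-2 than with shUGDH-1 (-0.19, edgeR adjusted p = 1.3e-04). The ERK phosphatase DUSP4 rose with both (0.10 and 0.20, edgeR adjusted p = 3.3e-04 and 9.6e-11), and TIPARP, an ADP-ribosyltransferase, fell with both (-0.24 and -0.18, 2.5e-07 and 1.7e-04).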

How the data were processed

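Libraries were read-pair mRNA-seq of MDA-MB-231 cells. The deposited table holds whole-number read counts per gene, not normalized by the authors as far as the values show. Per the submitters' processing notes, STAR, DESeq, DESeq2 and hg19 were used, while tool versions, gene annotation, counting method and strand setting were not given in the sources used here. Comparison tables deposited by the authors give a mean signal (baseMean), log2 fold changes, their errors and a p-value, per the file headers, and were used only to compare calls. The 28 entries whose symbols had become dates (0.232% of counts) stayed in the fit unnamed. Counts were filtered with filterByExpr (99.93% of counts kept), scaled by TMM (9 factors, 0.9968 to 1.003), then fitted with edgeR 4.0.16 in R 4.3.3 by robust quasi-likelihood with a mean per group over all 9 libraries (6 residual degrees of freedom, common biological coefficient of variation 0.0202). Tests were edgeR's quasi-likelihood test, with p-values adjusted by the Benjamini-Hochberg method over all genes. CPM are the authors' counts scaled to a common library size. Levels per kilobase use the longest coding GENCODE transcript.

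The 39 genes and the related lists were chosen with earlier results of these data known, so patterns seen before are no independent support. Values per library are given for genes called in any comparison and for defining genes, and up to 4 genes of each related list are named, those called with both hairpins in the same direction first and then by size of change. A related list and some single genes are not reported here. Alternatives were other scaling factors, DESeq2 1.42.0, other filters, only the groups compared, a replicate block, leaving out each library, and removing the trend of fold change with GC content, length and level. Promoter coordinates are in GRCh38.p14, and no coordinate was converted from hg19.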

Additional observations from a re-analysis of the deposited data

Results flagged for a closer look

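The test of the difference between the hairpins themselves set apart 16 of the 38 genes, each with an adjusted p under 0.05 in edgeR's quasi-likelihood test, adjusted by the Benjamini-Hochberg method. That is 42.1% of the set, against 10.9% of all genes tested. At 50 CPM or more the shares were 55.2% of the set and 19% of all genes. As log2 fold changes of shUGDH-2 against shUGDH-1, the immediate-early genes gave -0.58 for FOS, -0.36 for DUSP1, -0.29 for FOSB, -0.18 for JUNB, -0.10 for EGR1 and -0.10 for IER2. All 3 shUGDH-2 libraries lay below all 3 shUGDH-1 libraries for each of these 6 genes. Among YAP regulators and partners, LATS2 gave -0.17, TEAD1 -0.081 and AMOTL2 0.10. Among YAP targets, CRIM1 gave 0.10, ANKRD1 0.083 and F3 0.050, where F3 was below shNT with both hairpins. SRF gave 0.11, MYL9 0.19, TPM4 0.051 and CNN3 -0.086. Of these 16 calls, 11 were kept in all 16 tested alternatives. F3 and TPM4 were kept in 7 of them, SRF in 11, TEAD1 in 12 and IER2 in 14. The F3 call was lost without any 1 of the 6 knockdown libraries (edgeR adjusted p up to 0.15). FOS and DUSP1 were called against shNT in opposite directions. UGDH itself was not called between the hairpins (-0.09, 95% interval -0.34 to 0.16, edgeR adjusted p = 0.74).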

How the results depend on the processing

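Of 49 calls on single genes over the 3 comparisons, 35 were kept in all 16 tested alternatives, and none changed sign in any alternative. Removing the trend with GC content, length and level moved 25 of 114 values by more than the replicate spread and 6 of the 49 called values by over 1.5 times. With DESeq2 the genes lower with shUGDH-2 numbered 3, those higher with shUGDH-2 than with shUGDH-1 numbered 4, and the immediate-early genes lower with shUGDH-2 numbered 2. In all, 9 calls were lost with DESeq2 on all libraries. They were NT5E and TPM2 with shUGDH-1, CNN2, GADD45B and JUNB with shUGDH-2, and F3, SRF, TEAD1 and TPM4 between the hairpins. YAP and TEAD targets lower with shUGDH-1 numbered 1 with upper quartile factors, with DESeq2 or with only the groups compared, and their median was 0.016 with the trend removed. The cause was not tested. Leaving out each library in turn, genes lower with shUGDH-1 numbered 2 (without shNT 3) to 6, genes lower with shUGDH-2 3 to 5, genes higher with shUGDH-2 than with shUGDH-1 4 to 7, immediate-early genes lower with shUGDH-2 2 to 4, and YAP and TEAD targets lower with shUGDH-1 1 to 2. Over the same fits the median of all 38 genes with shUGDH-1 was 0.020 to 0.033 and that of the immediate-early genes with shUGDH-2 -0.145 to 0.00695. Same-numbered libraries of different groups correlated at -0.097 to 0.17 (9 pairs), other pairs at -0.127 to 0.104, and 3 of 9 libraries correlated best with their own number. These correlations cannot show whether same-numbered libraries were handled together. The replicate block changed none of 114 calls. Scarce genes (EGR2, EGR3, ACTA2, TAGLN) had intervals too wide to show changes as small as most of those called elsewhere. By the adjusted p in the authors' deposited tables, 16 of the 39 genes passed with shUGDH-1 and 12 passed for shUGDH-2, and each was also called here in the same direction.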

Other observations

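Among the other immediate-early genes, ATF3 and JUN were singled out after their values were seen. ATF3, a stress-induced factor, stood at 149, 152 and 155 CPM under shNT, 167, 179.9 and 179 under shUGDH-1 and 133, 141 and 139 under shUGDH-2. Like FOS and DUSP1 it was higher with shUGDH-1 (0.20, edgeR adjusted p = 4.2e-06) and lower with shUGDH-2 (-0.14, edgeR adjusted p = 0.0025). JUN, the AP-1 subunit, stood at 211, 209.6 and 212 CPM under shNT, 207, 211 and 222 under shUGDH-1 and 178, 181 and 182 under shUGDH-2. It was lower with shUGDH-2 (-0.23, edgeR adjusted p = 3.3e-08) and not called with shUGDH-1 (0.01, edgeR adjusted p = 0.83). The pattern was not shared by the whole list. FOSL2, another AP-1 subunit, rose under shUGDH-2 (0.08, edgeR adjusted p = 0.013), whereas shUGDH-1 lowered it (-0.06, 0.045). IER3 also rose under shUGDH-2 (0.10, edgeR adjusted p = 0.020), its shUGDH-1 change not being called (-0.04, 0.35). Between the hairpins, 10 of the 29 genes on the list were lower under shUGDH-2 and 3 were higher.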
